A study of Mus musculus with 10 samples.

Results

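The annexin genes of the mouse heart were followed 1 week after transverse aortic constriction (TAC), an operation that narrows the aortic arch and raises the pressure against which the left ventricle works. They were taken by gene symbol from a table of 20692 genes, as the rows named Anxa1, Anxa2, Anxa3, Anxa4, Anxa5, Anxa6, Anxa7, Anxa8 and Anxa11, and each of these 9 symbols had 1 row. The TAC group comprised 5 libraries of polyadenylated RNA from the ventricular apex of FVB/NJ wild-type mice labelled female and 9 weeks old, 1 week after the operation. The sham group comprised 5 libraries of the same strain, age, labelled sex and tissue, which the labels also call whole heart. No transgene or drug is named for either group.

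Annexins are proteins that bind negatively charged membrane phospholipids when calcium rises. They share a conserved core that holds the calcium and lipid contacts and differ in their amino-terminal tails, which bind partner proteins such as the small S100 proteins. In muscle and vessel wall they are known for patching torn plasma membrane, for covering phosphatidylserine exposed on dying cells, for organizing vesicle traffic and, for annexin A1, for restraining leukocyte entry. Annexin A6 is known as an abundant annexin of the heart.

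Of the 9 annexins, 6 rose, 1 fell and 2 did not pass the test. All 9 had enough counts to be tested, among 12001 genes. Anxa2 and Anxa1 rose most, 1.82-fold and 1.67-fold, Anxa3, Anxa4, Anxa5 and Anxa7 rose by 1.23-fold to 1.45-fold, and Anxa11 fell to 0.815 of its sham level. Anxa6, the annexin with the most reads, had the same mean in TAC and sham hearts to within 1 CPM. Levels are counts per 1000000 (CPM) on library sizes scaled by the TMM method, folds are TAC over sham, and a gene was called at an adjusted p under 0.05 in edgeR's quasi-likelihood test over all genes. Calls were frequent in this comparison, with 35.8% of tested genes called in all, 18.8% higher and 17.0% lower. The median log2 fold change was 0.49 over the 9 annexins and 0.00 over all tested genes. Every TAC library lay above every sham library for 5 annexins, as for 12.2% of tested genes, and every TAC library lay below every sham library for 1, as for 11.6% of tested genes.

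The library labelled TAC replicate 1 went against its label before any annexin was considered. It held 14 counts of Xist, the RNA of the inactive X chromosome, against 1042 to 1561 in the other libraries, and 155 counts of the Y-linked gene Ddx3y, which had 0 in every other library. Without it, the same number of annexins rose (6) and fell (1), at a median log2 fold change of 0.28, and the value of each annexin without it is given beside its result. Library totals ran from 7410967 to 9406094 counts in TAC and from 8100749 to 10126574 in sham. Cardiomyocyte markers, which check the tissue label, summed to 52670 to 75650 CPM over 8 genes in TAC and to 79070 to 94170 CPM in sham. Of these 8, 6 fell, where 17.0% of all tested genes were lower, and Actn2 and Actc1 did not pass (edgeR, adjusted p = 0.85 and 0.407). Much of the sum was Myh6, a myosin heavy chain, at 31780 ± 6938 CPM in TAC and 42830 ± 4382 CPM in sham. In bulk tissue, fewer cells of a type and less RNA per cell cannot be told apart.

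The stretches upstream of the start sites of the genes with the largest rises, Anxa2 and Anxa1, and of the gene that fell, Anxa11, are shown. These stretches were picked by fold change, so differences between their motifs cannot be tied to the direction of change. They come from RefSeq on build GRCm38.p6, which lists 7 of the 9 annexins (not Anxa3 or Anxa6), and bases inside the gene were left out. The Anxa2 stretch is chr9:69453433-69453682 on the plus strand, the Anxa1 stretch is chr19:20390672-20390921 on the minus strand, and the Anxa11 stretch is chr14:25841905-25842126 on the plus strand. Capitals mark matches, on either strand, to TGANTCA (AP-1), GGAATG (TEAD factors), AGAACA (part of a glucocorticoid receptor site), TATAAA (the TATA box) and GGGCGG (Sp1).
Anxa2: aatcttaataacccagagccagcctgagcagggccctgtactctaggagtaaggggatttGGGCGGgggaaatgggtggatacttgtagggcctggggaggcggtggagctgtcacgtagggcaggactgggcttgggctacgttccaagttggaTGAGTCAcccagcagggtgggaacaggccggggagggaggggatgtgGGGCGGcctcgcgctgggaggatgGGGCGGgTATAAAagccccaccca
Anxa1: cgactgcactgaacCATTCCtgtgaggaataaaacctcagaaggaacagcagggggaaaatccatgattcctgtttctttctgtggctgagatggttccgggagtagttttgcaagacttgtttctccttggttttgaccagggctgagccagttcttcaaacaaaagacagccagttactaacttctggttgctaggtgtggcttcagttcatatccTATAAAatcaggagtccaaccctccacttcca
Anxa11: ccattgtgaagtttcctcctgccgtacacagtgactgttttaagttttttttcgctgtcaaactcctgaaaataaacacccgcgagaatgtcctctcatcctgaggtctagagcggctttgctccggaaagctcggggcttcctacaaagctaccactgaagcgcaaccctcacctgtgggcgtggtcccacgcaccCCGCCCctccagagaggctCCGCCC
The Anxa2 stretch held 1 AP-1 match, 1 TATA box and 3 Sp1 matches that overlapped no other match. The Anxa1 stretch held 1 TEAD match and 1 TATA box, and the Anxa11 stretch held 2 Sp1 matches. Over 32851 RefSeq windows of the 250 bases before a start site, with several windows for some genes, 6.7% held the AP-1 letters, 12.6% TEAD, 16.1% AGAACA, 12.4% TATAAA and 32.7% Sp1. Windows, unlike the stretches shown, kept bases inside the gene. Of the 9 windows of the 7 annexins, the AP-1 letters occurred in that of Anxa2 and TATAAA in those of Anxa2 and Anxa1. AGAACA occurred in 1 of the windows of Anxa4, which lay inside that gene. Sp1 letters occurred in 4 windows, those of Anxa2 and Anxa11 and both of Anxa7. Anxa7 and Anxa5 both rose, and the window of Anxa5 held no match to any of the letters searched. These are matches of letters, and no binding was measured.

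Anxa2 (ENSMUSG00000032231, chromosome 9) encodes annexin A2, which pairs with S100A10 at the cell surface, where the complex gathers plasminogen and its activator, and which also takes part in membrane repair. Its level was 193, 179, 193, 137 and 139 CPM in TAC replicates 1 to 5, against 106, 99.1, 83.6, 76.4 and 96.9 CPM in sham replicates 1 to 5. All TAC libraries were above all sham libraries, and TAC replicates 1, 2 and 3 stood above replicates 4 and 5. The mean was 168 ± 28.1 CPM in TAC and 92.4 ± 12.1 CPM in sham (SD, n = 5 each), and the log2 fold change was 0.86 ± 0.12 (SE), with an adjusted p of 0.000175 by edgeR. Without TAC replicate 1 it was 0.81. Against Anxa6, whose counts serve as a measure within the same library that no scaling touches, Anxa2 had 0.550 to 0.806 counts per Anxa6 count in TAC and 0.304 to 0.488 in sham. These ranges did not overlap. They follow from the Anxa2 and Anxa6 levels of the same libraries, so the ratio is not a separate result.

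Anxa5 (ENSMUSG00000027712, chromosome 3) encodes annexin A5, which forms lattices on membranes that expose phosphatidylserine and is widely used as a probe of dying cells. It stood at 119, 117, 102, 98.2 and 96.9 CPM in TAC hearts, against 95.4, 86.3, 80.9, 77.8 and 85.6 CPM in sham hearts. The groups were apart by a narrow margin, the lowest TAC value being 96.9 and the highest sham value 95.4 CPM. Its means were 107 ± 10.4 CPM in TAC and 85.2 ± 6.69 CPM in sham, so that its log2 fold change was 0.32 ± 0.08 (edgeR, adjusted p = 0.0052), or 0.28 without TAC replicate 1.

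Anxa4 (ENSMUSG00000029994, chromosome 6) encodes annexin A4, which self-assembles on membranes and is known from epithelia. Its values were 33.9, 28.3, 27.7, 24.95 and 24.92 CPM in TAC libraries, against 20.1, 18.9, 19.0, 20.2 and 20.7 CPM in sham libraries. The sham libraries lay close together and every TAC library lay above them, TAC replicate 1 being the highest. Mean levels were 27.9 ± 3.65 CPM in TAC and 19.8 ± 0.808 CPM in sham, for a log2 fold change of 0.49 ± 0.09 (edgeR, adjusted p = 0.000852), or 0.41 without TAC replicate 1.

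Anxa6 (ENSMUSG00000018340, chromosome 11) encodes annexin A6, the longest of the family because its core is duplicated, and it is known in mice to act in membrane repair and in cardiomyocyte calcium handling. It was counted at 249.2, 244, 239, 249.1 and 229 CPM in TAC, against 217, 228, 262, 251.5 and 251.5 CPM in sham. The TAC values fell inside the sham range. Means of 242 ± 8.29 CPM in TAC and 242 ± 18.7 CPM in sham gave a log2 fold change of 0.00 ± 0.06 (edgeR, adjusted p = 0.985). It was -0.01 without TAC replicate 1, and 0.11 with library totals alone as the scaling (adjusted p = 0.179).

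**Figure D1:**
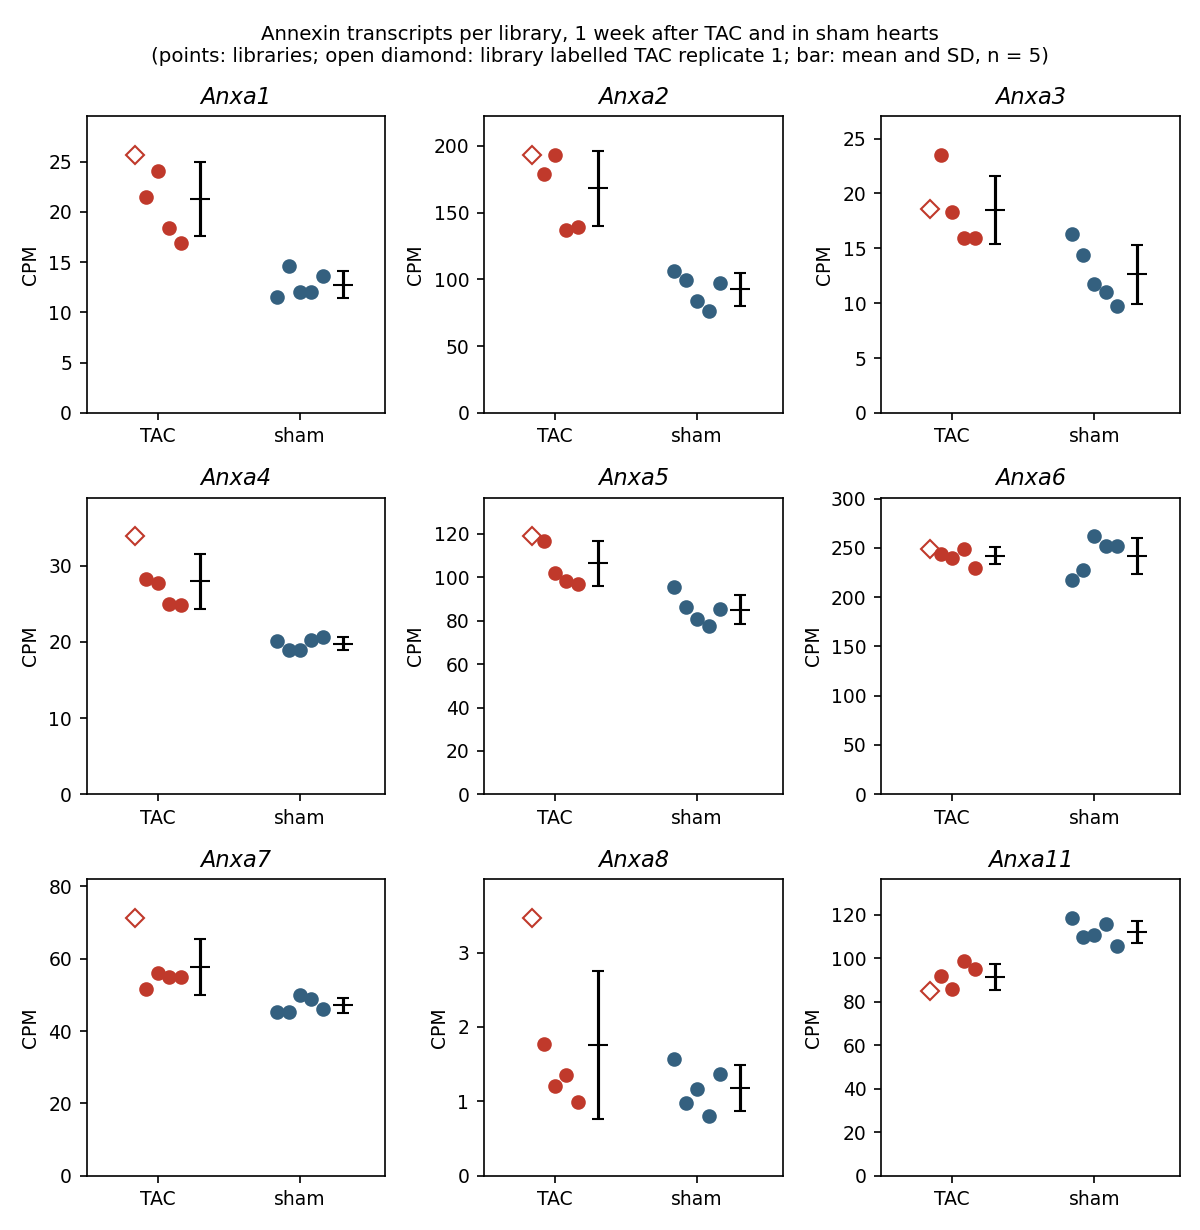
CPM of each annexin in every library, TAC left of sham in each panel, with axes from 0. Points are libraries, the open diamond is the library labelled TAC replicate 1, and bars are means and SD of 5. Anxa2, Anxa1, Anxa4, Anxa5 and Anxa7 have all TAC points above all sham points, Anxa11 all below, and Anxa3, Anxa6 and Anxa8 overlap.

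Among annexins known from leukocyte control, Anxa1 (ENSMUSG00000024659, chromosome 19) encodes annexin A1, a glucocorticoid-induced protein that acts on formyl peptide receptors to limit neutrophil entry. TAC hearts had 25.7, 21.5, 24.1, 18.4 and 16.9 CPM and sham hearts had 11.5, 14.6, 12.01, 12.01 and 13.6 CPM. The groups did not overlap, and TAC replicates 1 and 3 were the highest. With 21.3 ± 3.70 CPM in TAC and 12.8 ± 1.31 CPM in sham, the log2 fold change was 0.74 ± 0.12 (edgeR, adjusted p = 0.000581), or 0.66 without TAC replicate 1.

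Anxa3 (ENSMUSG00000029484, chromosome 5) encodes annexin A3, an annexin of neutrophil granules that has also been linked to vessel growth. Values of 18.6, 23.5, 18.3, 15.97 and 15.92 CPM in TAC stood against 16.4, 14.4, 11.8, 10.98 and 9.73 CPM in sham. The groups overlapped, since sham replicate 1 exceeded TAC replicates 4 and 5. Averages of 18.5 ± 3.09 CPM in TAC and 12.6 ± 2.69 CPM in sham gave a log2 fold change of 0.54 ± 0.15 (edgeR, adjusted p = 0.0123), or 0.53 without TAC replicate 1.

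Anxa7 and Anxa11 encode the annexins with long, flexible amino-terminal tails, and they moved in opposite directions. Annexin A7, or synexin, aggregates membranes and binds sorcin, a calcium-dependent regulator of the calcium release channel. Anxa7 (ENSMUSG00000021814, chromosome 14) was at 71.3, 51.6, 55.9, 54.9 and 54.9 CPM in TAC, against 45.3, 45.2, 49.98, 48.7 and 46.1 CPM in sham. TAC replicate 1 stood far above the other TAC libraries, which still lay above all sham libraries. The log2 fold change was 0.30 ± 0.08 (edgeR, adjusted p = 0.0135) from means of 57.7 ± 7.76 CPM in TAC and 47.1 ± 2.16 CPM in sham, and 0.21 without TAC replicate 1 (adjusted p = 0.0143).

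Annexin A11 binds the calcium sensor ALG-2, the product of Pdcd6, and is known to link RNA granules to moving lysosomes. Anxa11 (ENSMUSG00000021866, chromosome 14) had 84.8, 91.7, 86.1, 98.9 and 94.9 CPM in TAC libraries, against 118.6, 109.7, 110.7, 115.7 and 105.6 CPM in sham libraries. Every TAC library lay below every sham library. It averaged 91.3 ± 5.92 CPM in TAC and 112 ± 5.14 CPM in sham, for a log2 fold change of -0.30 ± 0.06 (edgeR, adjusted p = 0.00167), or -0.27 without TAC replicate 1. Within each library, Anxa7 had 0.555 to 0.841 counts per Anxa11 count in TAC and 0.382 to 0.452 in sham. Because Anxa7 was higher and Anxa11 lower in every TAC library, these ranges could not overlap. The ratio is therefore not a separate result.

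Anxa8 (ENSMUSG00000021950, chromosome 14) encodes annexin A8, known mainly from epithelia, and had the fewest counts of the 9. It had 30, 13, 10, 13 and 9 raw counts in TAC and 15, 8, 9, 7 and 12 in sham. The groups overlapped, and TAC replicate 1 held the highest count. Its log2 fold change of 0.56 ± 0.35 did not pass (edgeR, adjusted p = 0.242), and it was 0.15 without TAC replicate 1. Outside the 9, Anxa9 had 6 to 13 counts in TAC and 1 to 7 in sham and was too weak to be tested, and Anxa10 had 0 counts in all libraries.

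**Figure D2:**
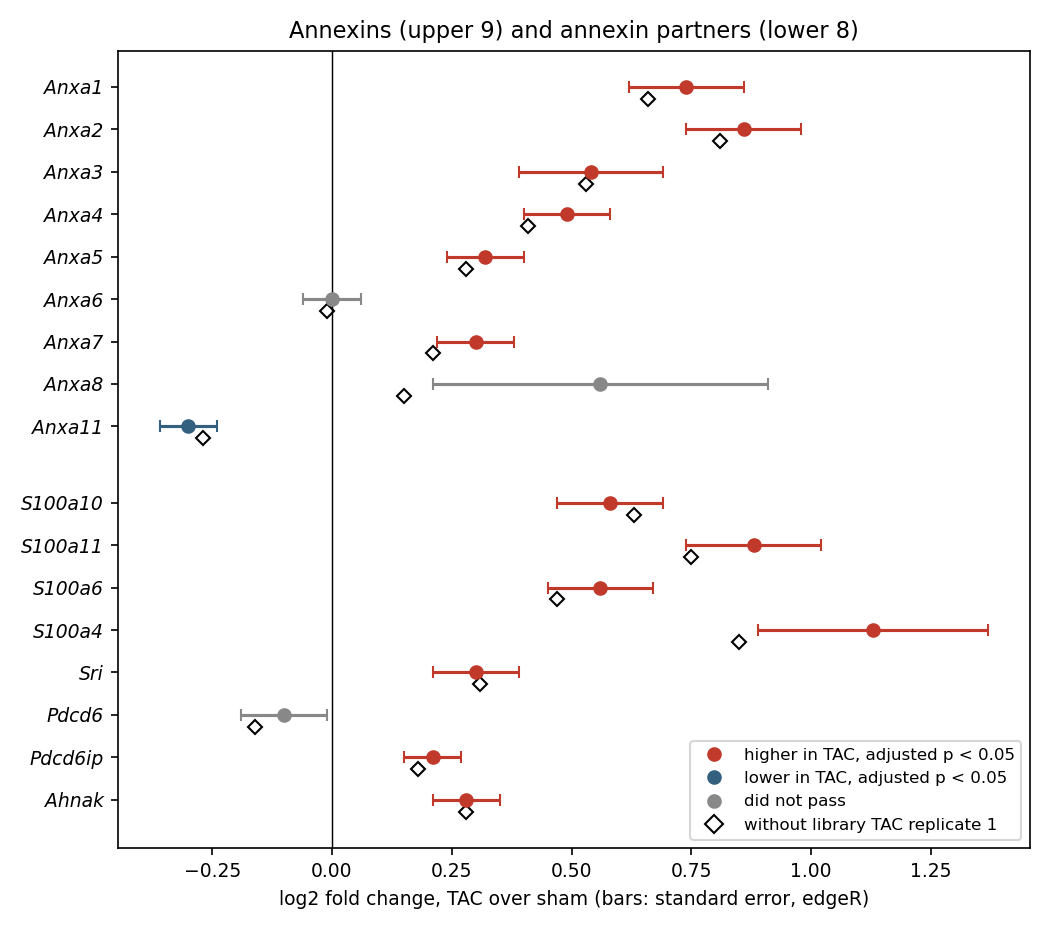
Log2 fold change, TAC over sham, of the 9 annexins and of 8 genes of annexin partners. Circles are edgeR estimates with their standard error, coloured by call, and open diamonds are estimates without the library labelled TAC replicate 1. Anxa2 at 0.86 lies furthest right among the annexins and Anxa11 at -0.30 furthest left.

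Read as a whole, the 9 annexins made up 674 to 799 CPM in TAC libraries and 614 to 632 CPM in sham libraries, ranges that did not overlap. The make-up of that total also differed. Anxa2 held 22.8% ± 2.57 of annexin counts in TAC and 14.8% ± 1.85 in sham (SD, n = 5 each), and its ranges of 19.6% to 25.8% and 12.44% to 16.8% were apart. Anxa11 held 12.5% ± 1.58 in TAC and 17.9% ± 0.891 in sham, also with no overlap. Anxa6 held 33.0% ± 1.80 in TAC and 38.7% ± 3.01 in sham, where sham replicate 1, at 34.4%, lay among the TAC values. A share falls when other members rise, so these are not separate changes.

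**Figure D3:**
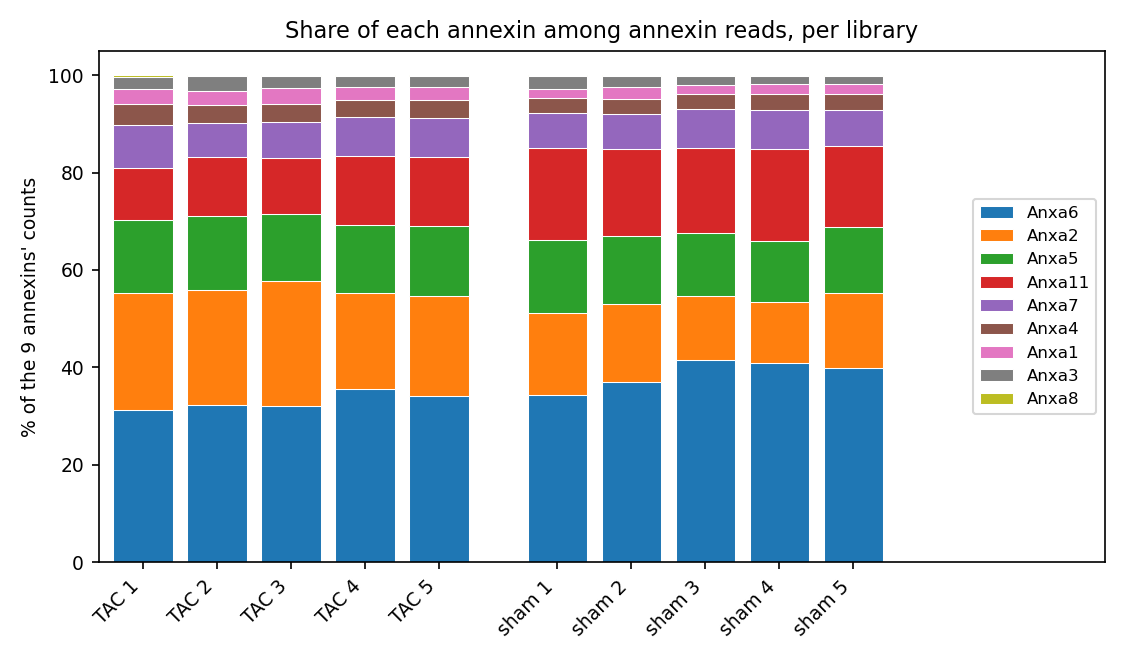
Share of each annexin, in percent of the counts of the 9 annexins, in each library, with the 5 TAC libraries on the left and the 5 sham libraries on the right. The Anxa2 segment is 19.6% to 25.8% in TAC and 12.44% to 16.8% in sham, and the Anxa11 segment is 10.6% to 14.2% in TAC and 16.7% to 18.9% in sham.

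Levels of different genes were compared per kilobase of annotated exon (FPKM, from the exon union of GENCODE M21). In TAC hearts the order was Anxa6 at 82.7 ± 2.83, Anxa5 at 59.97 ± 5.86, Anxa2 at 45.1 ± 7.54, Anxa11 at 22.1 ± 1.43, Anxa7 at 9.64 ± 1.295, Anxa1 at 7.32 ± 1.27, Anxa4 at 6.02 ± 0.787, Anxa3 at 5.07 ± 0.848 and Anxa8 at 0.935 ± 0.531 FPKM (SD, n = 5). Among TAC libraries, the neighbours Anxa7 and Anxa1, Anxa1 and Anxa4, and Anxa4 and Anxa3 had overlapping ranges. In sham hearts Anxa6 stood at 82.6 ± 6.36, Anxa5 at 47.9 ± 3.77, Anxa11 at 27.1 ± 1.24, Anxa2 at 24.8 ± 3.24, Anxa7 at 7.86 ± 0.360, Anxa1 at 4.38 ± 0.450, Anxa4 at 4.26 ± 0.174, Anxa3 at 3.47 ± 0.737 and Anxa8 at 0.626 ± 0.163 FPKM. There, Anxa11 and Anxa2, Anxa1 and Anxa4, and Anxa4 and Anxa3 overlapped. Anxa2 thus lay clear above Anxa11 in TAC hearts (lowest Anxa2 36.8 and highest Anxa11 23.9 FPKM), whereas the same genes overlapped in sham hearts. The ranks depend on the length used, and reads of all exons were also divided by coding length alone. On that measure Anxa2 came first in TAC hearts at 165 ± 27.7 FPKM, ahead of Anxa6 at 120.0 ± 4.11. In sham hearts Anxa6 at 119.8 ± 9.23 stayed ahead of Anxa2 at 90.9 ± 11.9. Exon outside the coding sequence raises this measure: Anxa2 has 3731 exon and 1017 coding bases, and Anxa6 2930 and 2019. By coding length Anxa4, at 29.2 ± 3.82 FPKM in TAC and 20.7 ± 0.843 in sham, stood above Anxa1, at 20.5 ± 3.57 in TAC and 12.3 ± 1.26 in sham, and Anxa1 overlapped Anxa3 in both groups.

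**Figure D4:**
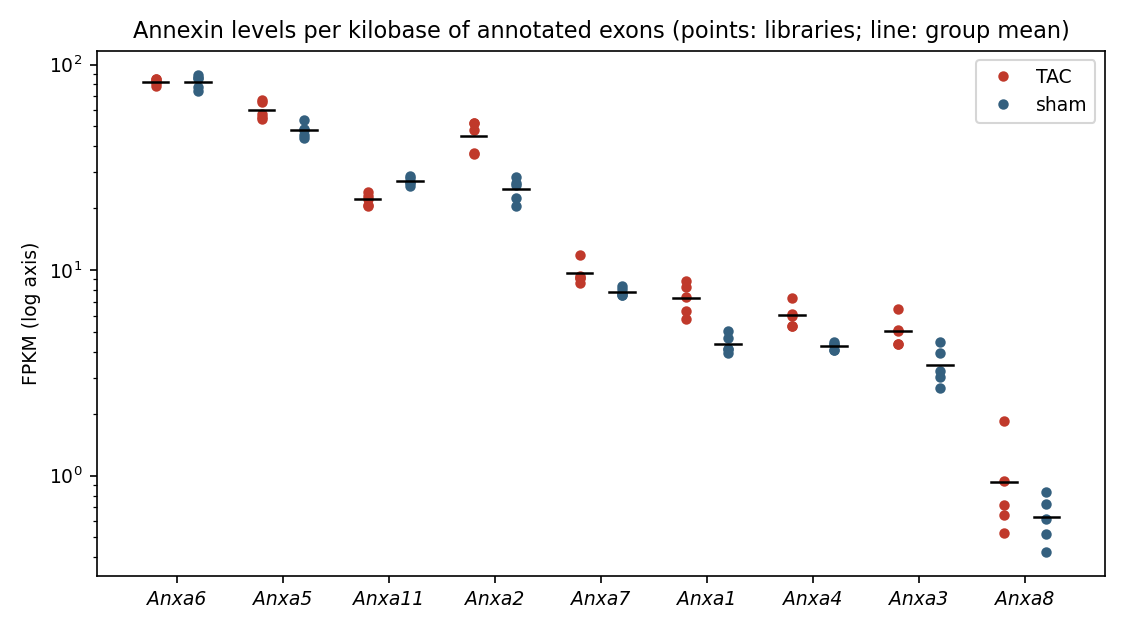
FPKM of each annexin per library on a log axis, ordered by the sham mean, with TAC points left of sham points and a line at each group mean. Anxa6 is level at 82.7 in TAC and 82.6 in sham, Anxa2 is at 45.1 in TAC and 24.8 in sham, and Anxa8 is the lowest in both groups.

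Transcripts of most genes listed as annexin partners rose. Of 8 tested genes on a list of S100 and other annexin partners, 7 rose, none fell and Pdcd6 missed the threshold. Among all tested genes, 18.8% were higher and 17.0% lower. The list had a median log2 fold change of 0.43, and 7 also rose without TAC replicate 1. S100a10, the partner of annexin A2, was at 55.1, 69.5, 83.2, 60.3 and 52.7 CPM in TAC and at 40.04, 44.3, 42.1, 39.5 and 48.3 CPM in sham, with no overlap (log2 fold change 0.58 ± 0.11, adjusted p = 0.00182 by edgeR). Per kilobase of exon, S100a10 had 52.9 ± 10.2 FPKM in TAC and 35.3 ± 2.96 FPKM in sham. S100a10 counts per Anxa2 count ran from 0.286 to 0.440 in TAC and from 0.378 to 0.517 in sham, ranges that overlapped. S100a11, the partner of annexin A1, had 67.8 ± 15.9 CPM in TAC and 36.9 ± 3.73 CPM in sham (log2 fold change 0.88 ± 0.14). S100a6 rose 1.48-fold, and S100a4, a protein of motile cells, 2.19-fold with a log2 fold change of 1.13, or 0.85 without TAC replicate 1. Sri, which encodes sorcin, rose 1.23-fold, but its call ended when TAC replicate 2, TAC replicate 3 or sham replicate 3 was left out (adjusted p = 0.0505, 0.0551 and 0.0506 by edgeR). Ahnak, a giant scaffold bound by annexin A2 and S100A10, rose 1.21-fold. Pdcd6ip, which encodes the ESCRT-associated protein ALIX, rose 1.16-fold. Pdcd6, whose product binds annexins A7 and A11, had 21.9 ± 1.97 CPM in TAC and 23.5 ± 2.79 CPM in sham (adjusted p = 0.41 by edgeR).

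The receptors of annexin A1 were at or near 0. Of 5 formyl peptide receptor genes, none had enough counts to be tested, Fpr3, Fpr-rs3 and Fpr-rs4 had 0 counts in all libraries, and the 5 together summed to at most 0.231 CPM in a TAC library and 0.419 CPM in a sham library. Genes of plasminogen activation, the surface function of annexin A2, included some that rose. Plg, the gene of plasminogen itself, had 0 counts in every TAC library and at most 2 in a sham library, too few to be tested. Of 6 tested genes of the list, 3 rose (5 with library totals alone as the scaling) and none fell. Over all tested genes, 18.8% were higher and 17.0% lower. The median of the list was 0.65 on the log2 scale. Plat, tissue plasminogen activator, had 35.3 ± 5.03 CPM in TAC and 22.7 ± 3.31 CPM in sham (log2 fold change 0.63 ± 0.11, adjusted p = 0.00102 by edgeR). Serpine2, an inhibitor of plasminogen activators and thrombin, rose 1.89-fold, with TAC replicate 1 at 74.9 CPM and the other TAC libraries at 26.9 to 37.1 CPM, and its log2 fold change was 0.57 without that library in place of 0.92. Plaur, the urokinase receptor, rose 1.61-fold (adjusted p = 0.033 by edgeR), a call that ended in 6 of the 10 fits that left out a library (adjusted p = 0.0626 to 0.0921). Plau, urokinase, differed by 0.67 ± 0.26 on the log2 scale (edgeR, adjusted p = 0.0597), and 5033414D02Rik, an older symbol of the plasminogen receptor gene Plgrkt, by 0.17 ± 0.08, and neither passed.

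Genes of plasma membrane repair included several that rose. Among the 15 tested, 7 rose and 1 fell, where 18.8% of all tested genes were higher and 17.0% lower. The list median was 0.18 on the log2 scale. The 7 rises stood beside no fall in 9 of the 10 fits that left out a library and beside 2 falls without TAC replicate 2. Ehd2, an ATPase at the necks of caveolae, had 360 ± 21.8 CPM in TAC and 231 ± 15.9 CPM in sham (log2 fold change 0.64 ± 0.06, adjusted p = 2.86e-05 by edgeR). Myof, myoferlin, rose 2.01-fold, Cav1, caveolin-1, 1.44-fold, Ptrf, the caveolar coat protein cavin-1, 1.27-fold, and Capn2, a calpain, 1.23-fold. Dysf, dysferlin, which meets annexins at membrane wounds in muscle, rose 1.21-fold, with 388 ± 30.9 CPM in TAC and 321 ± 15.9 CPM in sham. The gene that fell was Cav3, the caveolin of muscle (log2 fold change -0.24 ± 0.09, adjusted p = 0.0467 by edgeR), chosen for naming after its value was seen. Its call was absent without any one library other than TAC replicate 2, with either change of the low-count filter, and with library totals alone as the scaling.

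Of 18 tested genes of phosphatidylserine exposure and clearance, the lipid that annexin A5 binds, 8 rose and none fell, and the list median was 0.24 on the log2 scale. Without TAC replicate 1, 8 rose as well. The counts of the main fit stand beside 18.8% higher and 17.0% lower among all tested genes. Stab1, a scavenger receptor of macrophages and endothelium, had 239 ± 29.0 CPM in TAC and 135 ± 10.6 CPM in sham (log2 fold change 0.83 ± 0.08, adjusted p = 3.25e-05 by edgeR). Itgav, an integrin subunit of engulfment, rose 1.5-fold, and the lipid scramblase gene Ano6 and Plscr3, a gene of another family, each rose 1.27-fold. Mfge8, a bridge between phosphatidylserine and integrins, rose 1.23-fold, and Axl, a receptor for bridging proteins, 1.16-fold. Annexin A1 was first described as an inhibitor of phospholipase A2. On the list of phospholipase A2 and eicosanoid synthesis, with 11 tested genes and a median of 0.33 on the log2 scale, 3 rose and 1 fell. These few calls are to be read against the same shares of 18.8% higher and 17.0% lower. Pla2g4a, the cytosolic phospholipase A2, rose 2.75-fold at a low level (3.57 ± 1.22 CPM in TAC and 1.29 ± 0.215 CPM in sham). Ptgis, prostacyclin synthase, rose 1.78-fold, Pla2g6, a calcium-independent phospholipase A2, 1.18-fold (edgeR, adjusted p = 0.0463, lost in 7 of the 10 fits that left out a library), and Pla2g4b fell to 0.7 of its sham level. Ltc4s and Ptgs1 had log2 fold changes of 0.69 ± 0.26 and 0.33 ± 0.16 and did not pass.

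Among markers of other cell types, the macrophage and fibroblast lists held the most genes that rose, read against 18.8% of all tested genes. All 11 tested of 12 macrophage markers rose, and 10 rose without TAC replicate 1. Their median was 0.77 on the log2 scale, or 0.67 without that library. The macrophage list summed to 415 to 686 CPM in TAC and 253 to 294 CPM in sham, with TAC replicate 1 the highest. Its highest members were Lyz2, Csf1r and C1qb. Of 8 fibroblast markers, 6 rose, and their sum was 1396 to 3818 CPM in TAC and 610 to 784 CPM in sham, with TAC replicate 1 the highest. The list median was 0.35 on the log2 scale, 5 rose without TAC replicate 1, and the sum was mostly Col1a1, a collagen chain, at 1351 ± 926 CPM in TAC and 307 ± 69.96 CPM in sham. Postn, periostin, rose 8.62-fold and Dcn, decorin, 1.24-fold, while Dpt and Tcf21 did not pass (edgeR, adjusted p = 0.357 and 0.0563). Of 8 endothelial markers, 2 rose, with a median of 0.14 on the log2 scale and sums of 1266 to 1553 CPM in TAC and 1128 to 1360 CPM in sham. Of 8 smooth muscle and pericyte markers, 2 rose, with a median of 0.07, at 1148 to 1294 CPM in TAC and 1075 to 1415 CPM in sham. Of 6 tested mesothelial markers, 1, Wt1, rose, at sums of 37.1 to 62.8 CPM in TAC and 29.2 to 55.2 CPM in sham. The part of these cell types in the annexin results was not tested. Neutrophil markers were near 0: their 8 genes summed to 3.40 to 7.31 CPM in TAC and 2.44 to 9.38 CPM in sham, Ly6g and Elane had 0 counts in all libraries, and Csf3r was the 1 member tested and rose. Lymphocyte markers summed to 3.65 to 5.66 CPM over 9 genes in TAC and 2.86 to 4.63 CPM in sham, where Cd4 was the 1 member tested and rose. Of 5 tested erythroid markers (1000 to 2137 CPM in TAC and 276 to 1688 CPM in sham) and 3 tested markers of nerve and glia (7.88 to 13.4 CPM in TAC and 11.4 to 14.4 CPM in sham), none passed by edgeR.

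Within groups, some annexins varied together from library to library. After the group means were subtracted, Pearson's r of log2 CPM over 10 libraries was 0.82 for Anxa2 and Anxa5, 0.75 for Anxa1 and Anxa2 and 0.73 for Anxa3 and Anxa5, and the values without TAC replicate 1 were 0.78, 0.70 and 0.82. The highest values were those of the weakly counted Anxa8, with Anxa5 (0.84 over 10 libraries and 0.84 over 9) and with Anxa4 (0.83 and 0.47). Anxa1 and Anxa11 ran in opposite directions, with r = -0.86 over 10 libraries and -0.81 over 9. Of the 8 pairs with Anxa7, 5 changed sign without the library labelled TAC replicate 1: r of Anxa4 and Anxa7 was 0.70 with it and -0.30 without it, and that of Anxa5 and Anxa7 was 0.18 with it and -0.81 without it. These libraries share scaling and tissue make-up, the points are few, and the values are given as a description.

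**Figure D5:**
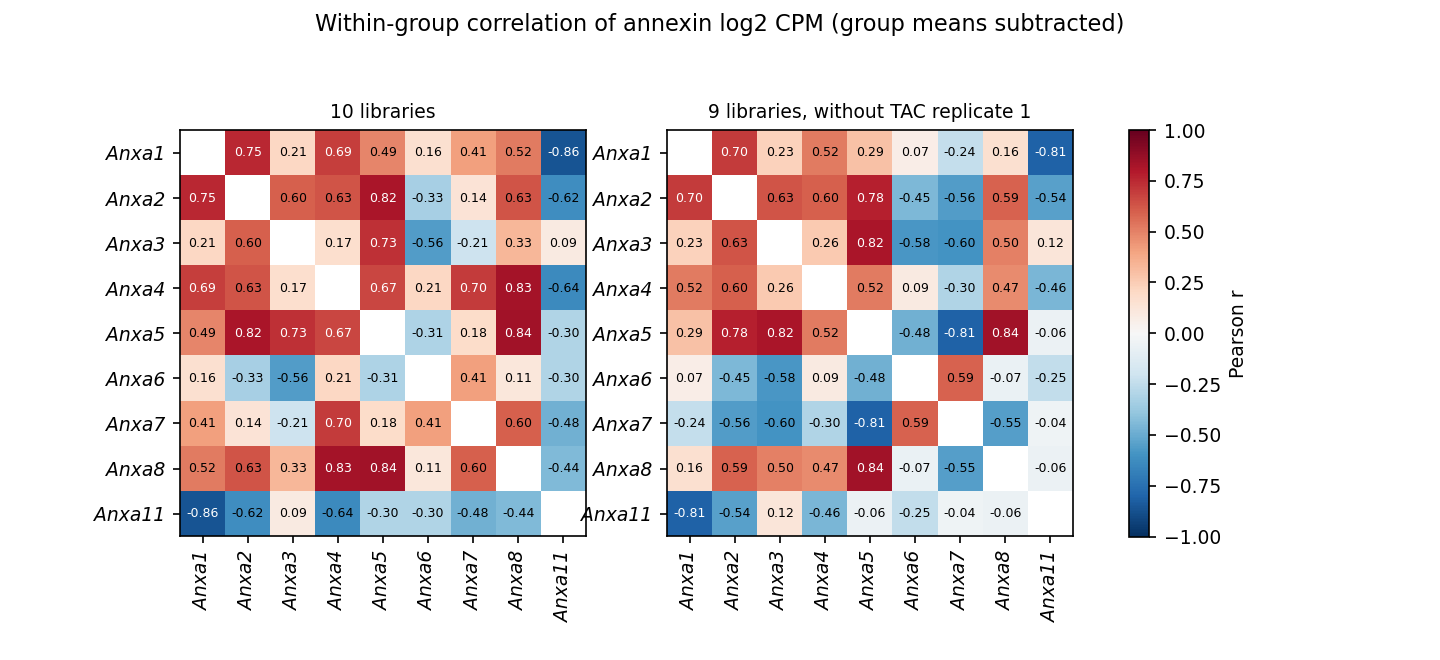
Pearson's r between annexins of log2 CPM with group means subtracted, over 10 libraries on the left and over the 9 libraries without TAC replicate 1 on the right. Anxa1, Anxa2 and Anxa5 keep positive values with each other on both sides, while the values of Anxa7 with Anxa1, Anxa2, Anxa4, Anxa5 and Anxa8 are positive on the left and negative on the right.

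Across all 10 libraries, group difference included, the genes outside the family whose log2 CPM ran most like each annexin were found among 11525 genes whose mean log2 CPM was 1 or more. Clic1, a chloride channel protein, and Synpo2l, a Z-disc protein, were most like Anxa2 (r = 0.99 each), and Gpx7, a peroxidase of the endoplasmic reticulum, and Mlkl, the effector of necroptosis, most like Anxa1 (r = 0.99 and 0.98). Ech1, an enzyme of fatty acid oxidation, and Mrpl44, a mitochondrial ribosomal protein, were most like Anxa11 (r = 0.99 and 0.985), and both fell in TAC hearts (log2 fold changes -0.95 and -0.37). The pairs were Slc39a1 and Ccdc80 for Anxa4 (0.99 and 0.98), Qsox1 and Vwa1 for Anxa5 (0.98 each), Wdr54 and Flot1 for Anxa7 (0.98 and 0.97), Gpatch4 and Ppfia1 for Anxa3 (0.96 each), Adamts6 and Gpr158 for Anxa6 (0.95 and 0.94) and Lox and 2200002D01Rik for Anxa8 (0.95 and 0.94). Each is the highest of many values over 10 points and is given as a description.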

How the data were processed

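The authors deposited 1 table of raw, not normalized counts of reads for Ensembl genes, with a column for each of the 10 libraries. Libraries were single-end and do not keep the strand, per the labels' protocols, so reads cannot be told apart where another gene's exons overlap: in GENCODE M21 (GRCm38) 113 exon bases of Anxa11, 98 of Anxa2 and 75 of Anxa4 overlap genes on the opposite strand, and 112 of Anxa3 a gene on the same strand. The submitters' processing notes list TopHat2 2.0.10, Bowtie2, HTSeq and mm10 for sham and TopHat 1.3.0, Bowtie, HTSeq, mm9 and mm10 for TAC, and the table's header names GRCm37, so alignment and group cannot be told apart. Titles of the sham libraries do not name the operation, and their group follows from the series design text. That text counts mice, so replicates are taken as animals, and if they were not, p-values measure only the spread between these samples. Libraries of 1 group differed beyond sampling noise (chi-square 2.66 to 25.1 per gene over pairs), so none was counted as a repeat. In TAC, pairs with replicate 1 ran from 14.8 to 25.1 and the other pairs from 4.51 to 9.64. In sham, pairs with replicate 1 ran from 11 to 12.2 and the other pairs from 2.66 to 7.65.

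A row of totals, which names no gene, was left out. edgeR 4.0.16 (R 4.3.3) was run on all genes with TMM factors, filterByExpr (minimum count 10, minimum total 15), group as the only term, quasi-likelihood F tests and Benjamini-Hochberg adjustment at 0.05; SE is the log2 fold change over the root of F. Log2 CPM used a prior count of 2. Alternatives used limma 3.58.1 and DESeq2 1.42.0. The fit was tested on simulated data. Replicate numbers are shared by the groups, but the labels do not say that a number marks a shared litter, batch or day. Same-numbered libraries were therefore not treated as pairs. They deviated together with r of -0.091 to 0.222, against -0.196 to 0.252 for libraries of unlike number, which does not settle whether they are pairs. Gene lengths (99% of tested genes matched) came from GENCODE M21. The annexins and the gene lists were chosen with earlier results of these data known. Named genes were the 9 annexins, all tested members of pathway lists with up to 10 tested genes, the 6 with the smallest p of longer lists, up to 3 markers per marker list with the highest mean CPM, and the 2 most alike genes per annexin. The single markers that rose in a list, the markers named as not passing, and Plg were named after their values were seen. One listed gene is not reported here by name. Depth was 7410967 to 10126574 counts per library.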

Additional observations from a re-analysis of the deposited data

Results flagged for a closer look

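Among the 18 sets of 5 values examined (9 annexins in each group), 1 held a library far from the rest. Anxa7 in TAC replicate 1 was at 71.3 CPM, against 51.6 to 55.9 CPM in the other TAC libraries, and its gap to the nearest took 0.783 of the range, above Dixon's critical value of 0.71. Chance flags about 1 in 20 such sets. This is the library whose Xist and Ddx3y counts go against its label, and the Anxa7 call held without it (log2 fold change 0.21, adjusted p = 0.0143 by edgeR).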

How the results depend on the processing

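Under the 19 alternatives run (scaling, test, low-count filter, replicate block and each library left out), 6 annexins rose and 1 fell every time. Log2 fold changes ranged over 0.66 to 0.84 for Anxa1, 0.80 to 0.97 for Anxa2, 0.44 to 0.65 for Anxa3, 0.41 to 0.60 for Anxa4, 0.28 to 0.43 for Anxa5, 0.21 to 0.40 for Anxa7 and -0.33 to -0.19 for Anxa11, each called under all 19. Anxa6 was never called and crossed 0, at 0.00 with RLE factors, -0.01 with DESeq2, 0.00 with no filter and -0.04 to 0.03 with a library left out. Anxa8 was never called and was removed by the stricter filter. Scaled by library totals alone, the median of all genes moved by 0.11, Anxa6 stood at 0.11 and Pdcd6 at 0.00, and 3257 genes were higher and 1159 lower, against 2251 and 2040; the cause was not tested beyond this shift. On the same scale, 5 plasminogen genes and 3 copines rose, 8 repair genes rose and none fell, and 4 eicosanoid genes rose. With the replicate block, 2113 genes were higher and 1924 lower, and the calls of Plaur and Cpne1 ended (adjusted p = 0.0814 and 0.0542 by edgeR) while Ltc4s and Ptgs1 passed (0.0365 and 0.036). The Pla2g6 call ended in 7 of the 10 fits that left out a library. Coding length in place of exon length, chosen after seeing the data, moved all FPKM values. The planned RefSeq protein length was not run. Anxa8 rests on 7 to 30 counts per library.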

Other observations

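The copines, another family of calcium-dependent phospholipid-binding proteins, were described in the same way. Of 9 copine genes, 6 were tested and 2 rose, where 18.8% of all tested genes were higher, and the list median was 0.21 on the log2 scale. Cpne1 had 23.7 ± 1.80 CPM in TAC and 19.95 ± 1.69 CPM in sham (SD, n = 5 each; log2 fold change 0.25 ± 0.08, adjusted p = 0.0243 by edgeR). Cpne2 had 10.1 ± 3.63 CPM in TAC and 6.13 ± 1.34 CPM in sham (log2 fold change 0.72 ± 0.23), and 0.49 without TAC replicate 1 (adjusted p = 0.0508). Cpne3, Cpne5, Cpne7 and Cpne8 had log2 fold changes of 0.17, -0.34, 0.16 and 0.26 and did not pass, and Cpne4, Cpne6 and Cpne9 were too weak to be tested. Both copine calls were lost in several of the fits that left out a library, and under the 19 alternatives between 0 and 3 copines rose.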
